A study of Mus musculus with 6 samples.

Results

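Interferon-induced genes are the genes that cells switch on when an interferon binds its receptor. A list of 37 such genes was chosen with earlier results of these data known. It was followed here in the distal jejunum of mice lacking the transcription factor Hnf4a in the intestinal epithelium and of their control littermates. Members were found by platform gene symbol, using probe sets with exactly 1 symbol and, per gene, the probe set with the highest mean over the 6 arrays. This gave 35 of the 37 genes, out of 18193 genes measured in all. Isg15 and Ifi44 had no probe set with 1 symbol, so their expression was not analysed here.

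The study compared 3 control mice and 3 mutant mice, each on its own Affymetrix array hybridised with total RNA. Mutants carried the floxed Hnf4a allele and a Cre transgene driven by a 12.4 kb piece of the villin promoter, which is active along the intestinal epithelium. All animals were littermates of strain B6.129X1(FVB)-Hnf4atm1.1Gonz/J, were kept pathogen free, were 7 months old, and received ketamine at 300 mg/kg and xylazine at 40 mg/kg before they were killed. The labels do not say whether the controls carried Cre. RNA came from biopsies of the tissue with no separation of cell types named in the labels, so RNA of immune and muscle cells was measured with that of the epithelium. In such bulk tissue, more cells of a type and more RNA per cell cannot be told apart.

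Type I and type III interferons are made by infected or stimulated cells. They act through a complex that includes STAT2 and IRF9 and binds the interferon-stimulated response element (ISRE). Type II interferon, or interferon gamma, is made by T cells and natural killer cells. It acts through the gamma-activated site (GAS) and through IRF1. In the gut, both kinds of response take part in defence of the epithelium against viruses and intracellular parasites.

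The DNA just upstream of these genes is shown first. The genes were listed as interferon-induced, and interferons act through the ISRE and GAS. A raised share of these elements is therefore not independent of how the list was chosen. The letters GAAA, any 2 bases and again GAAA, on either strand, were taken as the ISRE core. The letters TTCNNNGAA, which read the same on both strands, were taken as the GAS core, and matches may overlap. RefSeq promoter windows of 300 bases, from 250 before to 50 after each annotated start in build GRCm38.p6, were found for 28 of the 37 genes. An ISRE core was present in 15 of these 28 (53.6%), against 3.99% of 27025 genes with such a window. A GAS core was present in 9 of the 28 (32.1%), against 9.55%. Both were present in 5 of the 28 genes. The 28 include Isg15, which holds an ISRE core, and Ifi44, whose expression was not analysed. Among the 26 measured genes with a window, 14 held an ISRE core (53.8%) and 9 a GAS core (34.6%). A match describes the letters in the window and shows no binding.

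The stretches below lie upstream of the start on the strand of the gene, with each ISRE or GAS core in capitals, and were chosen to set the GTPase families, 2 IFIT genes, Oas1a and Irf1 side by side.
Gbp7 (chr3:142530258-142530317, + strand): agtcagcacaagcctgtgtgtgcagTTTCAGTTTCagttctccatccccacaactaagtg
Gbp3 (chr3:142559980-142560039, + strand): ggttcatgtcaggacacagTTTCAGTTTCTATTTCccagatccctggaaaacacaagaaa
Gbp2 (chr3:142620579-142620638, + strand): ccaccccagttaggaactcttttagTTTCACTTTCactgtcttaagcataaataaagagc
Igtp (chr11:58199497-58199555, + strand): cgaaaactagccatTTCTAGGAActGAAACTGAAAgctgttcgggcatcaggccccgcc
Irgm2 (chr11:58214888-58214947, + strand): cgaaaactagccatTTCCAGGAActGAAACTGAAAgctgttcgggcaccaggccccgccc
Irgm1 (chr11:48871421-48871469, - strand): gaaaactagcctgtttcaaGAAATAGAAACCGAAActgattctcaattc
Oas1a (chr5:120907526-120907564, - strand): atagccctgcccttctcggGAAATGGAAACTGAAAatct
Ifit1 (chr19:34640779-34640838, + strand): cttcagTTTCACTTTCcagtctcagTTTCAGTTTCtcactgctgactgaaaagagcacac
Ifit3 (chr19:34583382-34583441, + strand): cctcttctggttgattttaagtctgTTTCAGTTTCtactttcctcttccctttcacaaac
Irf1 (chr11:53769899-53769957, + strand): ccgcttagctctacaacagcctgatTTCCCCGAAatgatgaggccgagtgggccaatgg

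In Igtp and Irgm2 a GAS core stands 2 bases before an ISRE core, and the stretches are identical at 57 of 59 positions. Irgm1 and Oas1a each hold 2 overlapping ISRE cores, as does Gbp3 on the opposite strand. Ifit1 holds 2 separate ISRE cores and Ifit3 holds 1. The Irf1 stretch holds a GAS core alone. Ifit2 is not shown, and no ISRE core of these letters was found in its windows.

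Hnf4a checked the labels. It read a log2 signal of 11.82, 11.76 and 11.57 in controls 1, 2 and 3 and 8.83, 8.83 and 9.82 in mutants 1, 2 and 3, a change of -2.56 ± 0.25 SE (limma, adjusted p = 0.00756). Rank correlations between arrays lay between 0.980 and 0.987. Enterocyte markers (14 genes) had a mean of 12.50 to 12.51 in controls and 12.35 to 12.40 in mutants. Pancreatic acinar transcripts were high in control 3, and fat transcripts were high in mutant 2. Y-linked genes, which males carry, were expressed in control 1 and mutant 3 alone, so each group mixed the sexes. The 3' minus 5' difference of actin, a sign of RNA integrity, was 0.39 to 0.66 in controls and 0.42 to 0.73 in mutants. That of Gapdh was 0.38 to 0.48 in controls and 0.71, 0.29 and 0.58 in mutants 1, 2 and 3, and its part in the results was not tested.

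The interferon-induced genes lay higher in the mutants as a group, but only 1 of them, Gbp7, rose by the test across all genes. Of the 35 genes, 33 had a higher mean in mutants (94.3%), against 46.7% of all genes. Their median log2 change was 0.68, against -0.01 over all genes, and single genes ranged from -0.09 to 2.21. At an adjusted p under 0.05 in limma, 1 of the 35 was called higher and 0 lower, a share of 2.86% beside the 0.198% of all genes called higher, 0.330% called lower and 0.528% called in either direction. At an unadjusted p under 0.05, 21 were higher and 0 lower (limma), a share of 60.0% beside 5.24% of all genes higher and 6.85% lower. All 3 mutants lay above all 3 controls in 14 genes (40.0%), against 6.93% of all genes. The genes share their arrays and cell sources, so these counts are not independent observations. The list was chosen with earlier results of these data known, so its shares describe it and are no test of it.

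**Figure D1:**
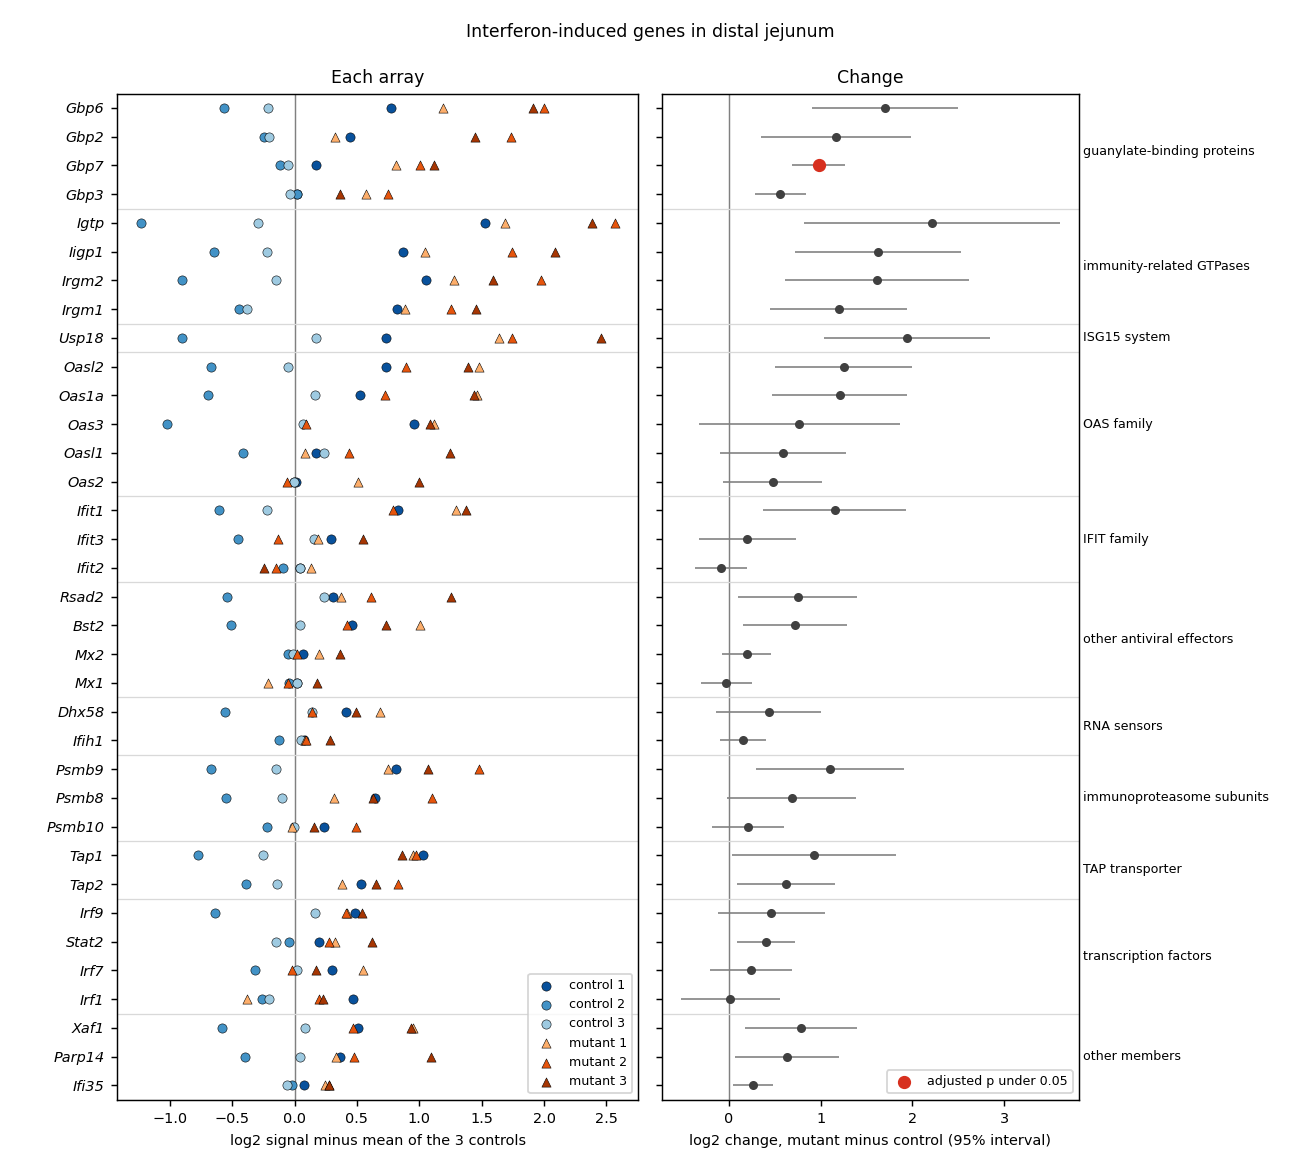
Left, log2 signal of each of the 35 interferon-induced genes on each array, minus the mean of its 3 controls (circles, controls; triangles, mutants). Right, log2 change with its 95% interval from limma, in red for Gbp7, the 1 gene with an adjusted p under 0.05; control 1 lies to the right of the other controls in most genes.

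The mean over the 35 genes was 7.48, 6.55 and 6.96 in controls 1, 2 and 3 and 7.65, 7.73 and 7.95 in mutants 1, 2 and 3. The groups did not overlap, but control 1 lay 0.16 below the lowest mutant and 0.52 above the next control. Group means were 7.00 ± 0.47 (SD, n = 3) and 7.78 ± 0.16 (SD, n = 3), a difference of 0.78. Control 1 was the highest control in 33 of the 35 genes (94.3%), against 36.7% of all genes. Control 1 and mutant 3, the arrays with Y-linked expression, each had the highest mean of their group. The part of sex in the height of control 1 was not tested. Without control 1 the median change was 0.90 and 7 genes passed (Gbp6, Gbp7, Ifit1, Igtp, Irgm1, Irgm2 and Tap1), beside 0.181% of all genes called higher in that fit. With the Y-linked mean as a covariate 5 passed (Gbp6, Gbp7, Iigp1, Irgm1 and Usp18), beside 0.374% of all genes called higher. Without control 2, control 3 or mutant 2, 0 of the 35 passed in limma, beside 0.0440%, 0.0385% and 0.0440% of all genes called higher, and 14, 16 and 20 of the 35 were higher at an unadjusted p under 0.05. With both control 3 and mutant 2 left out, the arrays with acinar and fat transcripts, the median change was 0.78. In that fit 0 of the 35 passed in limma, beside 0.00550% of all genes called higher, and 11 were higher at an unadjusted p under 0.05.

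Guanylate-binding proteins, large GTPases that attack the vacuoles of intracellular pathogens, were all higher in mutants. Gbp7 read 6.59, 6.30 and 6.37 in controls 1, 2 and 3 and 7.23, 7.43 and 7.54 in mutants 1, 2 and 3. Its groups were well apart, and it rose 1.97-fold, a log2 change of 0.98 ± 0.12 SE (95% interval 0.69 to 1.26, limma adjusted p = 0.0218). A second Gbp7 probe set differed by 1.30 and did not pass when every probe set was tested (limma adjusted p = 0.144). Across 19 alternatives the call was kept in 11 and lost in 8, with a log2 change between 0.91 and 1.14. Of the thresholds among them, 0.10 could not lose the call and 0.01 could not keep it. Losses included the omission of control 2 (limma adjusted p = 0.10), control 3 (adjusted p = 0.125) or mutant 2 (adjusted p = 0.0830). The mean of all Gbp7 probe sets also lost the call (limma adjusted p = 0.0533).

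Gbp6 read 6.45, 5.11 and 5.47 in the controls and 6.87, 7.68 and 7.59 in the mutants. Control 1 stood closer to mutant 1 than to the other controls, and the log2 change of 1.70 ± 0.35 SE did not pass (limma adjusted p = 0.0927). A second Gbp6 probe set differed by 1.93. Gbp3 read 5.20, 5.20 and 5.14 in the controls, the tightest control group of this family, and 5.75, 5.93 and 5.54 in the mutants (0.56 ± 0.12 SE, limma adjusted p = 0.107). Gbp2 read 7.72, 7.03 and 7.07 in the controls and 7.60, 9.01 and 8.72 in the mutants. In this gene mutant 1 lay below control 1, so the groups overlapped (1.17 ± 0.35 SE, limma adjusted p = 0.239). Members of this family are alike in sequence, and how far each probe set separates them was not tested. Over the whole list 12 genes had 17 further probe sets, of which 14 differed in the same direction as the one used, among them all 7 that lay above the array median on every array.

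The immunity-related GTPases, small interferon-gamma-induced GTPases that guard or strip the membranes around vacuolar parasites, gave the largest differences of any role group with more than 1 gene. Igtp, also known as Irgm3, read 8.93, 6.17 and 7.11 in the controls and 9.09, 9.97 and 9.79 in the mutants. The 3 controls spanned a wider range than the distance from control 1 to any mutant. Its log2 change of 2.21 ± 0.61 SE was the highest of the 35 genes, with a 95% interval of 0.81 to 3.61 (limma adjusted p = 0.193). Iigp1, an effector GTPase, read 7.66, 6.15 and 6.57 in the controls and 7.84, 8.54 and 8.88 in the mutants (1.62 ± 0.39 SE, limma adjusted p = 0.149). Irgm2 read 7.52, 5.56 and 6.31 in the controls and 7.74, 8.44 and 8.05 in the mutants (1.62 ± 0.44 SE, limma adjusted p = 0.189). Irgm1, a regulatory member of the family, read 7.53, 6.26 and 6.33 in the controls and 7.59, 7.96 and 8.16 in the mutants (1.20 ± 0.33 SE, limma adjusted p = 0.191). In all 4 genes the groups were apart, with control 1 just below mutant 1, and none passed the test over all genes. Without control 1, Igtp passed at a log2 change of 2.98 (limma adjusted p = 0.0278), Irgm1 at 1.61 (limma adjusted p = 0.0269) and Irgm2 at 2.14 (limma adjusted p = 0.0375). Control 1 was the highest control in all 4 genes, so its omission had to raise the change. Without control 2, control 3 or mutant 2 none of the 4 passed. Igtp then differed by 1.595, 2.067 and 2.036 (limma adjusted p = 0.439, 0.548 and 0.337).

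Usp18 removes the ubiquitin-like protein ISG15 from its targets and restrains signalling at the type I interferon receptor. It read 6.87, 5.24 and 6.31 in the controls and 7.78, 7.88 and 8.60 in the mutants. All mutants lay at least 0.91 above the highest control. The difference was 3.85-fold (log2 change 1.95 ± 0.39 SE, 95% interval 1.04 to 2.85), and it missed the threshold over all genes (limma adjusted p = 0.0907).

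The OAS family makes the 2'-5' oligoadenylates that activate RNase L, or binds RNA without making them. Oasl2 read 8.57, 7.17 and 7.79 in the controls and 9.32, 8.73 and 9.23 in the mutants (1.25 ± 0.33 SE, limma adjusted p = 0.175). Oas1a read 8.81, 7.59 and 8.45 in the controls and 9.75, 9.01 and 9.72 in the mutants (1.21 ± 0.32 SE, limma adjusted p = 0.181). In both, mutant 2 was the lowest mutant and the groups stayed apart. Oas3 read 6.46, 4.48 and 5.57 in the controls and 6.62, 5.59 and 6.59 in the mutants, where mutant 2 lay level with control 3. Oas2 read 5.09 to 5.11 in the controls and 5.60, 5.03 and 6.09 in the mutants, so only mutants 1 and 3 stood above the controls. Oasl1 differed by 0.59, with mutant 1 below controls 1 and 3, and by 0.26 without mutant 3, its highest array.

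The 3 IFIT genes, whose products bind foreign RNA, differed in size of change. Ifit1 read 8.07, 6.64 and 7.02 in the controls and 8.54, 8.03 and 8.62 in the mutants (1.15 ± 0.34 SE, limma adjusted p = 0.226). Mutant 2 lay just below control 1. Ifit3 differed by 0.20 ± 0.23 SE, with an interval of -0.33 to 0.73, and its upstream stretch holds an ISRE core as that of Ifit1 does. Ifit2 differed by -0.09 ± 0.12 SE, at signals of 3.84 to 4.22, beside array medians of 3.93 to 3.98.

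Among the other antiviral effectors, Rsad2, which encodes viperin, read 6.38, 5.53 and 6.31 in the controls and 6.45, 6.69 and 7.33 in the mutants (0.75 ± 0.28 SE, limma adjusted p = 0.337). Bst2, or tetherin, which holds budding virus at the cell surface, differed by 0.72 ± 0.25 SE, with mutant 2 just below control 1. The Mx GTPases stayed low: Mx1 lay under the median probe set on all 6 arrays (-0.03 ± 0.12 SE), and Mx2 differed by 0.20 ± 0.12 SE. The C57BL/6 strain and many other laboratory mice carry a defective Mx1. The RNA sensors Ifih1, which encodes MDA5, and Dhx58, which encodes LGP2, differed by 0.16 ± 0.11 SE and 0.44 ± 0.25 SE.

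Interferon-induced subunits replace their constitutive counterparts in the proteasome and shape the peptides shown by MHC class I. Psmb9 read 9.91, 8.43 and 8.95 in the controls and 9.85, 10.58 and 10.17 in the mutants (1.10 ± 0.35 SE, limma adjusted p = 0.263). Psmb8 differed by 0.68 ± 0.31 SE and Psmb10 by 0.21 ± 0.17 SE, and neither passed. The constitutive partners Psmb6, Psmb5 and Psmb7 differed by -0.06, 0.15 and 0.03. Of 14 constitutive core subunits none passed in limma, with 1 higher at an unadjusted p under 0.05 (5.24% of all genes), and their median was 0.03. Tap1 and Tap2 encode the pump that carries these peptides into the endoplasmic reticulum. Tap1 read 8.79, 6.99 and 7.51 in the controls and 8.71, 8.73 and 8.62 in the mutants. Here control 1 was the highest of all 6 arrays, while the mutants lay within 0.11 of each other (0.93 ± 0.39 SE, limma adjusted p = 0.390). Of 3 dimmer Tap1 probe sets 1 differed the other way (-0.11), and the mean of all Tap1 probe sets differed by 0.29. Tap2 differed by 0.62 ± 0.23 SE.

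None of the 4 measured transcription factors of the response passed. Stat2, a partner of IRF9 in the ISRE-binding complex, read 5.41, 5.17 and 5.06 in the controls and 5.54, 5.49 and 5.83 in the mutants (0.41 ± 0.14 SE, limma adjusted p = 0.283). Irf9 differed by 0.46 ± 0.25 SE and Irf7, which amplifies type I interferon production, by 0.24 ± 0.19 SE. Without control 2 these were 0.14 and 0.076, and without mutant 1 Irf7 was 0.077. Irf1, an early target of interferon gamma, read 10.15, 9.42 and 9.48 in the controls and 9.30, 9.88 and 9.91 in the mutants. Control 1 held the highest value and mutant 1 the lowest (0.02 ± 0.23 SE, interval -0.53 to 0.56). Of the remaining members, Xaf1, a partner of the apoptosis inhibitor XIAP, differed by 0.78 ± 0.27 SE, Parp14, an ADP-ribosyltransferase, by 0.63 ± 0.25 SE, and Ifi35 by 0.27 ± 0.09 SE. None of these passed. Dim second probe sets of Parp14 and Xaf1 differed by -0.16 and -0.073, and the mean of the Parp14 probe sets by 0.23.

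Genes with and without the ISRE core overlapped widely in their changes. The median log2 change was 0.87 in 14 measured genes with the core, which ranged from 0.16 to 2.21, and 0.52 in 12 without it, which ranged from -0.09 to 1.25. For the GAS core the medians were 0.72 in 9 genes and 0.75 in 17. These medians were not tested against each other.

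The 3 mutants did not rank alike across the role groups. In the 13 guanylate-binding, immunity-related GTPase, immunoproteasome and TAP genes, mutant 2 was the highest mutant in 10 and the lowest in 0. In the 8 IFIT and OAS genes it was the highest in 0 and the lowest in 6. Over all genes mutant 2 was the highest mutant in 34.9% and the lowest in 27.4%. The order of the 13 genes was not particular to them. Mutant 2 was the highest mutant in 12 and the lowest in 0 of 14 constitutive proteasome genes. It was the highest in 10 of 14 macrophage and dendritic cell markers and in 8 of 13 T cell markers. In 40 further interferon-induced genes it was the highest in 7 and the lowest in 19. The mean of the 13 genes was 8.24, 8.84 and 8.67 in mutants 1, 2 and 3, against 8.14, 6.94 and 7.29 in controls 1, 2 and 3. The mean of the 8 genes was 7.41, 6.95 and 7.61 in the mutants, against 7.08, 6.13 and 6.68 in the controls. In the first set the arrays did not overlap between groups, whereas in the second mutant 2 lay below control 1. The sets were formed after the values were seen, and the difference between them was not tested.

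**Figure D2:**
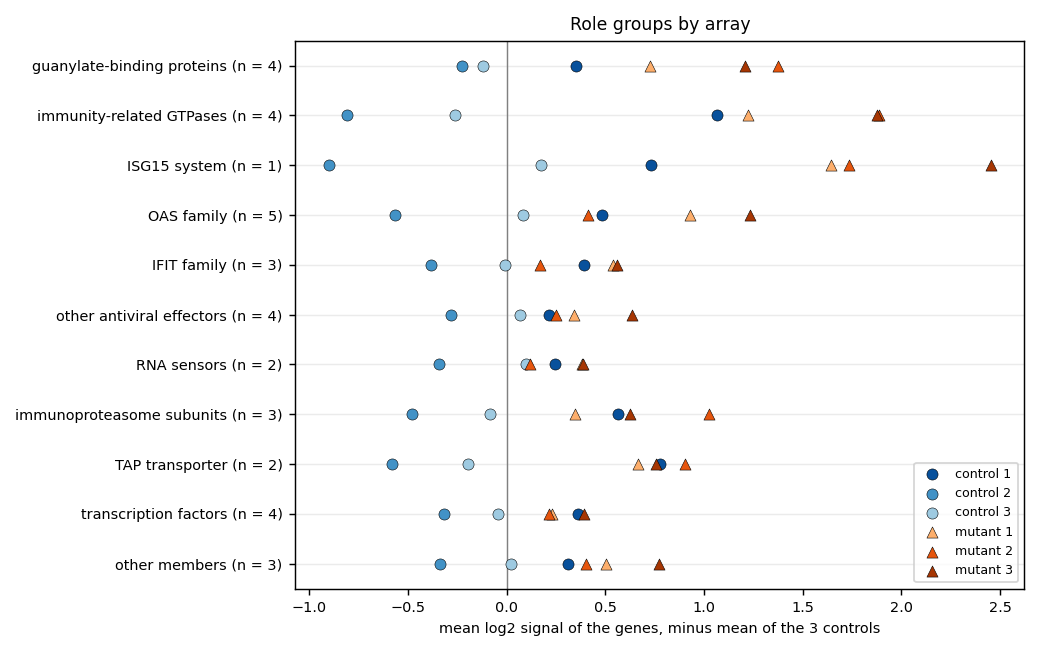
Mean log2 signal of the measured genes of each role group on each array, minus the mean of the 3 controls (circles, controls; triangles, mutants; n, genes). Mutant 2 stands at the upper end in the guanylate-binding, immunoproteasome and TAP groups and at the lower end of the mutants in the OAS and IFIT groups.

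Of 18 listed interferon ligands 9 were measured, and 8 of these lay under the median probe set on all 6 arrays, and 0 passed in limma, with 0 at an unadjusted p under 0.05. For this and the lists below, 0.198% of all genes were called higher and 0.330% lower. At that unadjusted p, 5.24% of all genes were higher and 6.85% lower. The ligand with the smallest p was Ifna2, under the median probe set on all 6 arrays. It read 3.14 to 3.31 in the controls and 2.99 to 3.06 in the mutants (-0.19 ± 0.10 SE, limma adjusted p = 0.493). Ifng read 2.56 to 2.76 in the controls and 2.65 to 3.09 in the mutants, and Ifnb1 2.99 to 3.64 over all arrays. Of 9 measured receptors and kinases none passed in limma (2 lower and 0 higher at an unadjusted p under 0.05), with a median of -0.07. Ifngr2, a chain of the interferon gamma receptor, read 8.04 to 8.12 in the controls and 7.27, 7.91 and 7.27 in the mutants (-0.58 ± 0.18 SE, limma adjusted p = 0.238). Jak2, a kinase bound to that receptor, differed by -0.37 ± 0.15 SE, and Ifnlr1, the epithelial receptor chain for type III interferon, by -0.03 ± 0.16 SE.

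Of 16 sensors and adaptors 0 passed in limma (3 higher and 0 lower at an unadjusted p under 0.05), with a median of 0.12. The member with the smallest p was Zbp1, an interferon-induced sensor of Z-form nucleic acid. It read 8.31, 6.55 and 7.18 in the controls and 8.34, 9.01 and 8.65 in the mutants (1.32 ± 0.40 SE, limma adjusted p = 0.238), with control 1 almost level with mutant 1. The DNA-signalling adaptor Sting1 differed by 0.52 ± 0.18 SE and the RNA sensor Tlr3 by 0.29 ± 0.12 SE. Among 6 inhibitors of the pathway none passed in limma, 1 was higher at an unadjusted p under 0.05, and the median was 0.30. Ptpn1, a phosphatase acting on JAK2 and TYK2, differed by 0.56 ± 0.15 SE (limma adjusted p = 0.182). Socs3 read 6.76, 7.77 and 10.71 in mutants 1, 2 and 3 and 7.04 to 7.50 in the controls, so mutant 3 alone stood high.

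Of 40 further interferon-induced genes, 1 rose, 0 fell and 39 did not pass (limma), beside 0.198% of all genes called higher and 0.330% lower. At an unadjusted p under 0.05, 15 were higher and 0 lower (limma), beside 5.24% of all genes higher and 6.85% lower. The median of the 40 was 0.33. The gene that rose was Slfn2, a schlafen family gene, at 6.86, 6.90 and 6.71 in the controls and 7.57, 7.40 and 7.75 in the mutants (0.75 ± 0.12 SE, limma adjusted p = 0.0490). In Slfn2 control 1 did not stand apart from the other controls. Ifi47, an immunity-related GTPase, read 9.51, 8.11 and 8.37 in the controls and 9.78, 10.46 and 10.36 in the mutants (1.54 ± 0.35 SE, limma adjusted p = 0.127). Ifitm1, which blocks virus entry, differed by 0.74 ± 0.13 SE (limma adjusted p = 0.0636), while its relative Ifitm3 differed by -0.15 ± 0.13 SE.

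MHC class I presentation had 0 of 10 genes past the test in limma, 1 higher at an unadjusted p under 0.05 and a median of 0.09. That gene was Nlrc5, the transactivator of MHC class I, at 4.88, 3.59 and 3.59 in the controls and 4.86, 5.56 and 6.59 in the mutants (1.65 ± 0.47 SE, limma adjusted p = 0.216). Controls 2 and 3 of Nlrc5 lay under the median probe set. The class I genes H2-K1 and H2-D1 and the light chain gene B2m differed by 0.08, 0.18 and 0.02.

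**Figure D3:**
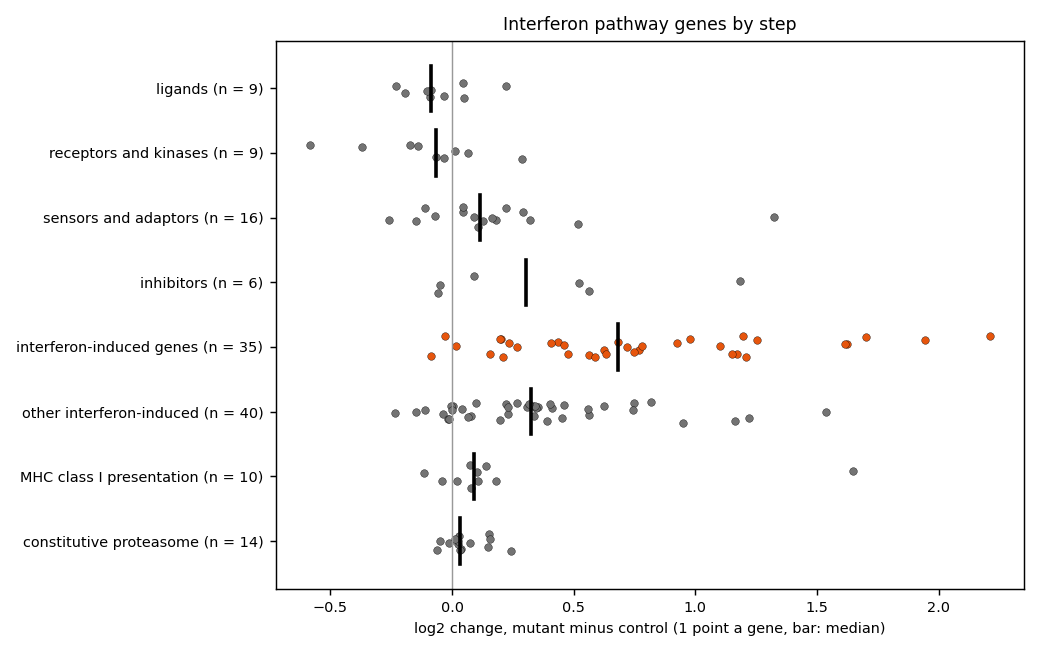
Log2 change, mutant minus control, of each measured gene by step of the interferon pathway (1 point a gene; bar, median). The interferon-induced genes have a median of 0.68, the ligands -0.09, the receptors and kinases -0.07 and the constitutive proteasome 0.03.

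None of the cell type markers examined passed the test. The mean of 13 T cell and intraepithelial lymphocyte markers was 6.64, 5.61 and 6.10 in controls 1, 2 and 3 and 6.52, 7.04 and 6.75 in the mutants. Of these, 0 passed in limma, 8 were higher and 0 lower at an unadjusted p under 0.05, and the median was 0.72. Of all genes, 5.24% were higher and 6.85% lower at that unadjusted p. Ccl5, a chemokine of these lymphocytes, read 10.15, 7.96 and 8.94 in the controls and 10.20, 11.04 and 10.33 in the mutants, and Gzmb 9.22, 7.36 and 8.25 against 8.77, 10.47 and 9.52. In both, control 1 was the highest control and mutant 2 the highest mutant. Cd2 lay under the median probe set on all 6 arrays, and Cd247 and Cd8b1 did so in all 3 controls, while Cd3e, Cd3d and Cd3g lay above it on all 6. The 8 B and plasma cell markers had means of 6.23 to 7.49 in the controls, with control 1 highest, and 7.18 to 7.60 in the mutants. Of these 8, 2 were higher and 0 lower at an unadjusted p under 0.05 in limma.

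Means of 14 macrophage and dendritic cell markers were 6.57 to 6.70 in the controls and 6.73 to 6.98 in the mutants. For 5 plasmacytoid dendritic cell markers they were 5.88 to 6.19 and 6.22 to 6.55, and for 7 natural killer markers 3.82 to 4.36 and 4.03 to 4.45. Among the plasmacytoid dendritic markers, Klk1 differed by 0.99 and Ccr9 by 0.47. Siglech, Tcf4 and Pacsin1 differed by 0.21, 0.18 and 0.03, with overlapping groups. Control 1 was the highest control in the macrophage and dendritic, plasmacytoid dendritic and natural killer means. In the natural killer mean it lay above mutants 1 and 2 (4.36 against 4.03 and 4.325). Means of 5 neutrophil markers were 3.31 to 3.34 and 3.22 to 3.50, under the array medians. Smooth muscle markers (6 genes) were 10.18 to 10.66 and 10.40 to 10.57. At an unadjusted p under 0.05 in limma, 4 macrophage and dendritic markers were higher and 1 lower. Of the plasmacytoid dendritic markers 2 were higher and 0 lower. The natural killer, neutrophil and smooth muscle lists had 0 in either direction. Of all genes, 5.24% were higher and 6.85% lower at that unadjusted p. The part of any of these cell types in the interferon-induced differences was not tested.

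Genes that mark position along the gut were looked up after the values were seen, and none passed (limma adjusted p = 0.299 for Fabp6, 0.289 for Slc10a2 and 0.220 for Gata4). Fabp6, a bile acid binding protein gene of the ileum, read 9.15, 6.67 and 3.37 in controls 1, 2 and 3 and 9.57, 10.03 and 9.80 in the mutants. Of the controls, control 1 stood closest to the mutants and control 3 was lowest. Slc10a2, the ileal bile acid carrier gene, read 3.31, 2.93 and 3.26 in the controls and 3.99, 4.40 and 6.98 in the mutants. Gata4, a transcription factor gene of the proximal small intestine, read 8.08 to 8.14 in the controls and 7.67 to 7.85 in the mutants. Sampling position and an effect of the deletion on these 3 genes cannot be told apart here, and the part of position in the interferon-induced differences was not tested.

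**Figure D4:**
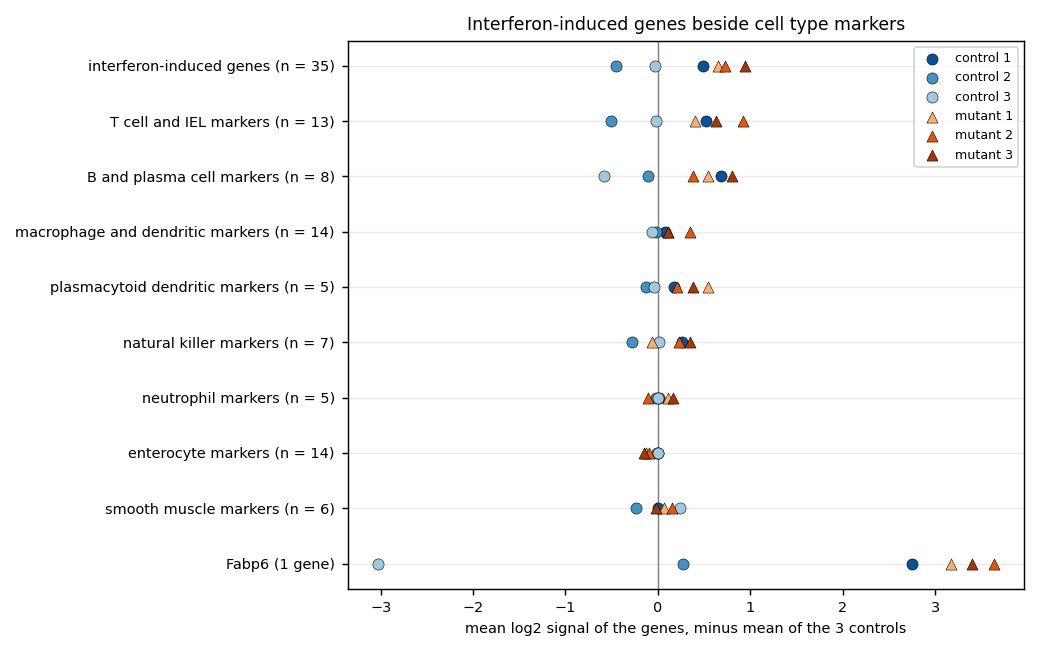
Mean log2 signal of the interferon-induced genes and of each marker list on each array, minus the mean of the 3 controls, with the single gene Fabp6 in the last line (circles, controls; triangles, mutants; n, genes). Control 1 lies next to or among the mutants for the interferon-induced genes, the T cell markers, the B and plasma cell markers and Fabp6. It does so as well for the macrophage and dendritic, plasmacytoid dendritic and natural killer markers. In the neutrophil markers all 3 controls lie within the range of the mutants. In the smooth muscle markers control 1 is the middle control and lies among the mutants.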

How the data were processed

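Signals were summarised by the authors to a single value for each probe set on each array and deposited, as their range of 1.80 to 14.54 shows, on a log2 scale. The methods of background correction, summarisation and normalisation are not stated in the labels. Array medians were 3.93 to 3.98 and the values were used as deposited. Of 45101 probe sets, 64 were Affymetrix controls. The platform annotation gave 1 symbol to 34945 of the rest, several to 932 and none to 9160, which left 18193 genes. RefSeq (GRCm38.p6) served for names and promoter windows only.

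Groups were compared with limma 3.58.1 (lmFit, eBayes) in R 4.3.3, two-sided, with Benjamini-Hochberg adjustment over all 18193 genes and a call at an adjusted p under 0.05. The 3 animals a group limit the precision. The fit was tested on simulated data. Alternatives covered normalisation, low values, probe set choice, the variance model, array weights (statmod 1.5.0), a replicate block, a Y-linked covariate, thresholds and left-out arrays.

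The 37 genes, their roles and the other lists were chosen with earlier results of these data known. Genes named were all listed members, the called genes and up to 3 genes with the smallest p of each other pathway list. Ifnb1, Ifnlr1, Ifitm3, H2-K1, B2m, Psmb6, Psmb7, the single marker genes and Fabp6, Slc10a2 and Gata4 lie outside that rule and were named after their values were seen.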

Additional observations from a re-analysis of the deposited data

How the results depend on the processing

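The number of changed genes, 96 as reported, was 11 with a floor at the 20th percentile, 150 with array weights, 62 with the replicate block, 196 with the Y-linked covariate, 248 at an adjusted p under 0.10, 20 at 0.01, 4 without control 3 and mutant 2 together, and 22 to 96 with 1 array left out. The number of changed interferon-induced genes, 1 as reported, was 0 with the floor, with the mean of all probe sets, at 0.01 and without control 3 and mutant 2 together (17, 17, 21 and 11 higher at an unadjusted p under 0.05 in limma), 3 at 0.10, 5 with the Y-linked covariate (Gbp6, Gbp7, Iigp1, Irgm1 and Usp18) and 0 to 7 with 1 array left out. Of all genes, 5.24% were higher at that unadjusted p in the fit as reported. The median change of the interferon-induced genes ran from 0.47 without control 2 to 0.90 without control 1, and stayed above 0 under all 19 alternatives. Thresholds, the variance model, the replicate block and testing every probe set keep the log2 changes as they were. These alternatives could not move that median. Irf1 changed sign without control 2, control 3, mutant 2 or mutant 3 (range -0.118 to 0.249 with 1 array left out) and without control 3 and mutant 2 together (-0.176), Ifit3 without control 2 (range -0.027 to 0.366) and Mx1 without mutant 1 (range -0.13 to 0.062). The cause was not tested.

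Deviations of same-numbered arrays correlated at 0.07, 0.07 and -0.02. Those of differently numbered arrays lay between -0.17 (control 1 and mutant 2) and 0.13 (control 3 and mutant 2). With 3 arrays a group, these correlations cannot settle whether replicate numbers pair the samples. With the replicate block, Oas1a passed (log2 change 1.21, adjusted p = 0.0350, limma) and Gbp7 did not (0.98, adjusted p = 0.0724).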
